A study of Mus musculus with 20 samples.

Results

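The genes described here belong to the plasminogen system, which dissolves fibrin clots, and to the coagulation system, which forms them. The list holds 9 genes. Plau, Plat and Plaur are the plasminogen activators and the receptor of one of them, Serpina3n is a protease inhibitor, F3, Tfpi and Thbd act at the start of coagulation or as its brakes, and F13a1 stabilises the clot. Serpine2, the ninth, is not analysed here. The other 8 genes have 13 of the 45281 probes of the array. A probe was kept if its detection p-value, the chance that background alone gives such a signal, was under 0.01 on at least 5 of the 20 arrays. That left 7 of the 13 probes, 1 each for Plau, Plaur, Plat, Serpina3n, Tfpi, Thbd and F13a1, among 18683 kept probes and 10278 gene symbols with a kept probe, and each of the 7 was detected on all 20 arrays. The remaining 6 probes, 1 for F3, 2 for Plat and 3 for Tfpi, were detected on 0 of 20 arrays.

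The study compared hearts of female and male C57BL/6J mice aged 12 to 15 weeks after experimental myocardial infarction (MI). The 4 groups of 5 mice were female MI, female sham, male MI and male sham. In the MI groups a coronary artery had been ligated, the sham groups had sham surgery, and RNA was taken on day 3 from the left ventricle with the infarct left out. Each array therefore reports the surviving ventricle as a mixture of its cells, in which fewer cells of a type and less RNA per cell cannot be told apart.

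Plasminogen is a circulating zymogen made mainly by the liver. Plau (urokinase, bound at the cell surface by its receptor Plaur) and Plat (tissue plasminogen activator) cut it to plasmin, which degrades fibrin and other matrix proteins. Coagulation starts when tissue factor (F3) binds factor VII, is restrained by Tfpi and by thrombomodulin (Thbd) on the endothelium, and ends with fibrin strands that factor XIII, whose A subunit is F13a1, links to each other. After infarction this machinery is known for its part in clearing and replacing injured matrix.

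Levels are log2 intensities after background correction and quantile normalisation, and a difference is the mean of an MI group minus the mean of the sham group of the same sex. Each contrast was tested in limma, and a probe counts as called where its p, adjusted by Benjamini-Hochberg over all 18683 kept probes, was under 0.05. Between 15670 and 18388 probes were detected per array, and the number of arrays limits the precision. The 3 arrays in position F of a chip, female MI 4, female sham 2 and male sham 3, stood apart. Their mean deviation from their groups was more than 1 log2 unit below that of the other arrays for 577 kept probes, against 0 probes at any other position. The listed genes moved with this position in different directions, from 0.43 higher for Plaur, 0.39 for Plat and 0.38 for Plau to -0.22 for F13a1, -0.49 for Serpina3n, -0.74 for Thbd and -1.04 for Tfpi. Results are therefore also given for the 17 arrays without position F.

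After MI the plasminogen activator Plat, the urokinase receptor Plaur and the clot stabiliser F13a1 were higher in both sexes, and urokinase itself, Plau, was called higher in females. In females 4 of the 7 kept probes were called higher and 0 lower (Plau, Plaur, Plat and F13a1), where 30.5% of all kept probes were called, 14.8% higher and 15.6% lower. In males 4 of 7 were called higher and 0 lower (Plaur, Plat, Serpina3n and F13a1), where 16.5% of all kept probes were called, 8.79% higher and 7.73% lower. These calls in both sexes made 3 of the 7 genes, beside 7.69% of all kept probes. The median difference of the 7 genes was 0.88 in females and 0.51 in males, beside medians of -0.06 and -0.04 over all kept probes. The genes were chosen with earlier results of these data known, so these shares and medians describe them and test nothing about the pathways. In each sex 3 of the 7 genes had all MI arrays above all sham arrays, beside 7.32% of all kept probes in females and 8.78% in males. Of all calls in females 48.7% were higher, a share that was 43.3% with 75th percentile scaling and 83.5% with no scaling between arrays. Of all calls in males 53.2% were higher, a share that was 32.8% with 75th percentile scaling and 94.5% with no scaling, and the 4 member calls in males were made under each of these. The anticoagulant genes Tfpi and Thbd were not called in either sex over 20 arrays.

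**Figure D1:**
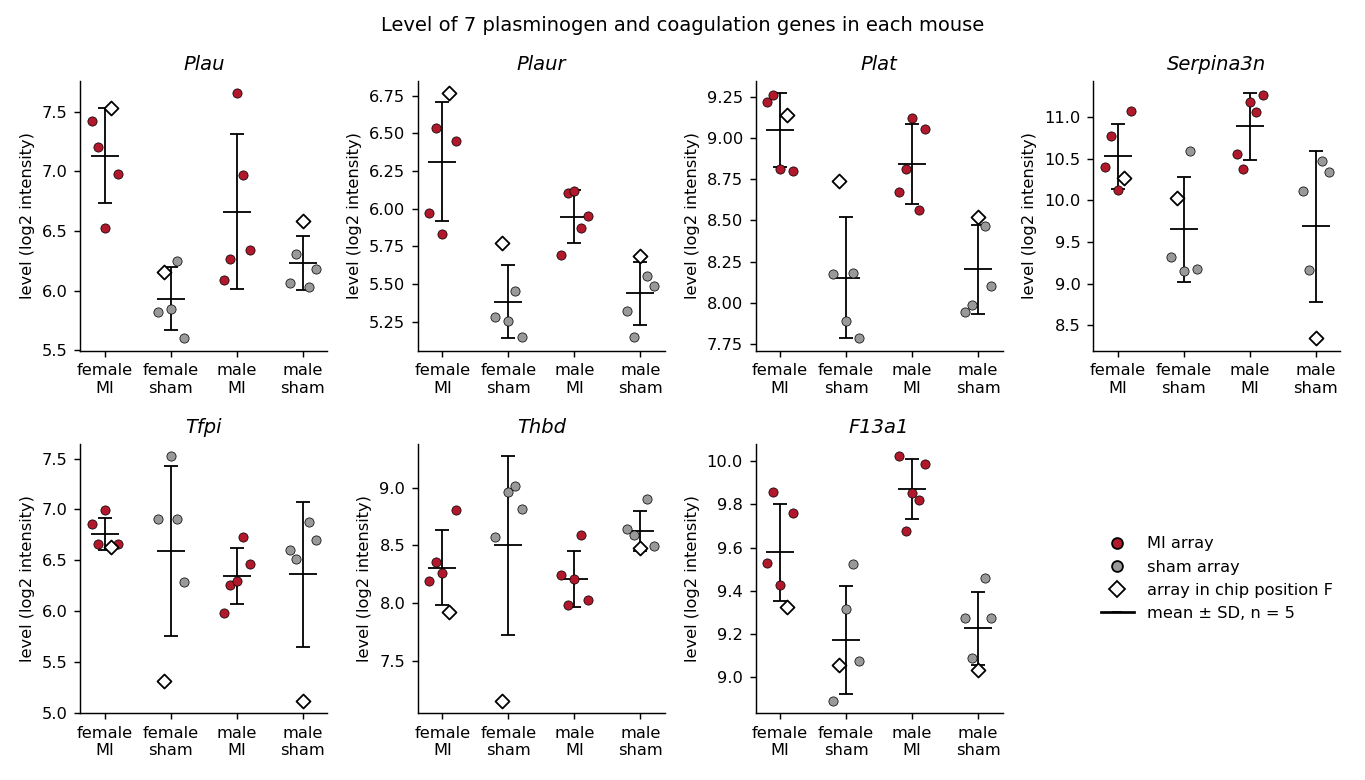
Level of each of the 7 genes in each mouse (y axis, log2 intensity) for female MI, female sham, male MI and male sham, with the mean and SD of 5 arrays as lines and the position F arrays as diamonds. The MI arrays of Plaur and Plat lie above all sham arrays of the same sex, while the lowest Tfpi and Thbd levels, 5.12 and 7.16, belong to position F arrays.

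The start regions of the called genes are shown because Plaur, Serpina3n and F13a1 were higher after MI in at least one sex. The 250 bases before the start come from RefSeq (GRCm38.p6), whose promoter table held 3 of the 5 genes called in either sex. The start is that of a transcript listed in that table and need not be the outermost start of the gene. For Plaur and Serpina3n it lies inside the listed span of the gene, and F13a1 has a second listed start, whose window is not shown. The sequences run 5' to 3' on the gene's strand, with matches to the searched motifs in capitals. The regions are chr7:24462233-24462482 on the plus strand for Plaur, chr12:104406458-104406707 on the plus strand for Serpina3n and chr13:37050245-37050494 on the minus strand for F13a1.
Plaur: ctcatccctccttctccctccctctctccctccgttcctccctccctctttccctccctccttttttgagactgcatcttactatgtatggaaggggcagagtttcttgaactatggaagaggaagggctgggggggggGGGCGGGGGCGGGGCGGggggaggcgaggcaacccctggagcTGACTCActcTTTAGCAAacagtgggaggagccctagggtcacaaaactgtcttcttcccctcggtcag
Serpina3n: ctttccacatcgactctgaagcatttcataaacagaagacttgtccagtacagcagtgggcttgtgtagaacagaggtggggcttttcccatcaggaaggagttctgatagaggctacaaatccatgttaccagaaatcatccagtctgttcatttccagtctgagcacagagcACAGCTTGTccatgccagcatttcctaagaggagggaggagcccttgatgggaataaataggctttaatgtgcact
F13a1: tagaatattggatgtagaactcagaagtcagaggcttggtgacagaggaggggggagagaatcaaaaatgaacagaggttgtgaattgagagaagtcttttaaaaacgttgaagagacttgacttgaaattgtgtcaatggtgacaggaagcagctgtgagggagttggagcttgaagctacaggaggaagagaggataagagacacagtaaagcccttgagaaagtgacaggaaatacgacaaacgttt
The 6 motifs searched on both strands were AP-1 (TGANTCA), STAT (TTCNNNGAA), C/EBP (TTGCNNAA), Sp1 (GGGCGG), the box of core promoters (TATAAA) and a glucocorticoid response element (ACANNNTGT). The Plaur region held TGACTCA, an AP-1 match, 69 bases before the start, a motif found in 6.75% of 32851 such windows. It also held 1 C/EBP match 59 bases before the start (9.56% of windows) and 3 overlapping or adjoining Sp1 matches (32.7%). The Serpina3n region held 1 match to the glucocorticoid element, found in 5.84% of windows, 76 bases before the start. In both F13a1 windows none of the 6 motifs was found. These matches describe letters only.

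Plau encodes urokinase-type plasminogen activator (chromosome 14, probe ILMN_2629582). In females its level was 7.42, 7.20, 6.53, 7.53 and 6.98 in the MI arrays, against 5.82, 6.16, 5.85, 6.25 and 5.60 in the sham arrays. In males it was 6.09, 6.26, 7.65, 6.97 and 6.34 in the MI arrays, against 6.06, 6.31, 6.58, 6.03 and 6.18 in the sham arrays. Every female MI array lay above every female sham array, while in males only MI arrays 3 and 4 exceeded all sham arrays. The difference was 1.20 in females (SE 0.24, 2.29-fold, adjusted p = 0.000795) and 0.43 in males (SE 0.24, adjusted p = 0.232, 95% interval -0.07 to 0.93). Leaving out 1 array gave a male difference of 0.18 to 0.57 (adjusted p 0.13 to 0.588), the lowest without male MI 3. The means ran from female MI (7.13 ± 0.40, SD, n = 5) through male MI (6.66 ± 0.65) and male sham (6.23 ± 0.22) to female sham (5.93 ± 0.26), and no neighbours in that order passed the test. Female MI minus male MI was 0.47 (adjusted p = 0.386). The difference between the sexes in the response was 0.77 (SE 0.34, 95% interval 0.06 to 1.47), with an unadjusted p of 0.0343 and an adjusted p of 0.557.

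Plaur encodes the urokinase receptor, which holds the enzyme at the cell surface (chromosome 7, probe ILMN_2590884, start region above). Its level in females was 5.97, 6.54, 5.83, 6.77 and 6.45 in the MI arrays, against 5.28, 5.77, 5.26, 5.45 and 5.15 in the sham arrays. In males the values were 5.69, 6.11, 6.12, 5.87 and 5.95 after MI, against 5.32, 5.15, 5.69, 5.55 and 5.49 after sham surgery. The groups did not overlap in either sex, but in males the lowest MI array and the highest sham array, which lies in position F, were nearly level. Plaur was 1.90-fold higher after MI in females (log2 0.93, SE 0.16, adjusted p = 0.000239) and 1.42-fold higher in males (log2 0.51, SE 0.16, adjusted p = 0.0372). The male call ended when any of 7 single arrays was left out: the adjusted p was 0.0824, 0.105 and 0.0531 without male sham 1, 2 and 5, and 0.0896, 0.0834, 0.0505 and 0.0646 without male MI 2, 3, 4 and 5. Without the position F arrays it was 0.00899 in males, with a difference of 0.57. Female MI minus male MI was 0.36 (unadjusted p = 0.0372, adjusted p = 0.32).

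Plat encodes tissue-type plasminogen activator, which works best on plasminogen bound to fibrin (chromosome 8, probe ILMN_2775937). In females its level was 9.22, 9.26, 8.81, 9.14 and 8.80 in the MI arrays, against 8.18, 8.74, 7.89, 8.18 and 7.79 in the sham arrays. In males it was 8.67, 8.81, 9.12, 8.56 and 9.05 in the MI arrays, against 7.94, 7.99, 8.52, 8.46 and 8.10 in the sham arrays. No MI array of either sex lay within the range of its sham group, although female sham 2 and male sham 3, both in position F, came close. Plat was 1.86-fold higher after MI in females (log2 0.89, SE 0.17, adjusted p = 0.000486) and 1.56-fold higher in males (log2 0.64, SE 0.17, adjusted p = 0.0136). Both calls held whichever single array was left out, with an adjusted p of at most 0.00223 in females and 0.0414 in males. Without position F the differences were 1.02 in females and 0.72 in males. The 2 other probes named Plat were not detected on any array, so the result rests on 1 probe.

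**Figure D2:**
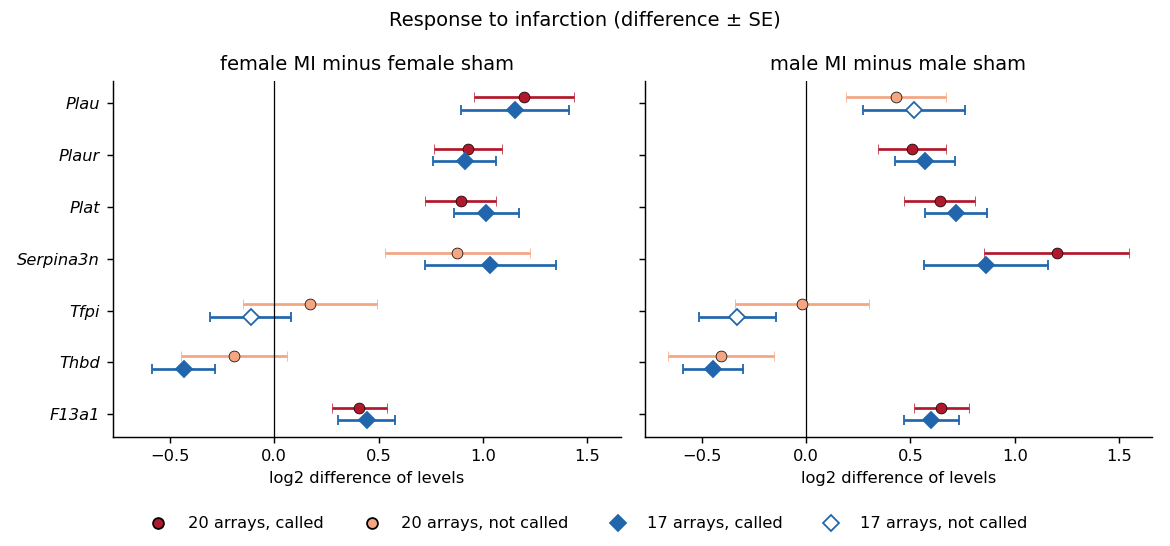
Difference between MI and sham for each gene (x axis, log2; bars, SE) in females on the left and males on the right, over 20 arrays (circles) and over the 17 arrays without position F (diamonds), with strong colour or filled symbols where the adjusted p was under 0.05. Thbd lies below 0 in both sexes and is called only without position F, with differences of -0.43 and -0.45, whereas Plaur, Plat and F13a1 are called in all 4 fits.

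Within single chips the differences of the activators and the receptor lay above 0. Chip 3 holds 4 female MI and 2 female sham arrays, and there the difference was 1.12 for Plau (adjusted p = 0.0436), 0.92 for Plaur (adjusted p = 0.0644) and 1.08 for Plat (adjusted p = 0.0203). Chip 1 holds 3 male MI and 3 male sham arrays, and there it was 0.35 for Plau, 0.59 for Plaur (adjusted p = 0.0682) and 0.72 for Plat (adjusted p = 0.0445). On chip 2, with 2 arrays of each male group, it was 0.55, 0.39 and 0.52, none with an adjusted p under 0.05. Chip 2 also holds 2 female sham arrays, and within it limma called 1 kept probe, not one of the 7 listed here, between female sham and male sham. No chip holds MI arrays of both sexes, so for female MI against male MI sex and chip cannot be told apart.

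Serpina3n encodes a secreted serine protease inhibitor related to human alpha-1-antichymotrypsin (chromosome 12, probe ILMN_1246800, start region above). In females its level was 10.40, 10.77, 10.12, 10.27 and 11.08 in the MI arrays, against 9.32, 10.02, 9.15, 10.59 and 9.17 in the sham arrays. In males it was 10.55, 10.37, 11.18, 11.06 and 11.27 in the MI arrays, against 10.11, 9.17, 8.34, 10.47 and 10.34 in the sham arrays. The sham groups were wide and reached into the MI range in both sexes, through female sham 4 and male sham 4. The difference was 0.88 in females (SE 0.35, adjusted p = 0.0618, 95% interval 0.15 to 1.60) and 1.20 in males (SE 0.35, 2.30-fold, adjusted p = 0.0223). The difference between the responses, -0.32, had an adjusted p of 0.857, so a stronger response in one sex was not shown.

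The calls for Serpina3n turned on single arrays. In males the adjusted p was 0.0671 without male sham 3, the position F array at 8.34, and 0.0652, 0.0529 and 0.056 without male sham 2, male MI 3 and male MI 5. In females the call was reached without female sham 2 (adjusted p = 0.0476), female sham 4 (0.0198) or female MI 3 (0.0492), and without male sham 3 (0.0234), which enters the shared spread. Without the 3 position F arrays Serpina3n was called in both sexes, 1.03 higher in females (adjusted p = 0.0175) and 0.86 higher in males (adjusted p = 0.0499). Within chip 3 the female difference was 0.52 (adjusted p = 0.352), and in males it was 1.50 within chip 1 (adjusted p = 0.0427) and 0.76 within chip 2 (adjusted p = 0.0207). Serpina3n lies in a family of closely related copies, and binding of their RNA by its probe was not tested.

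Tissue factor (F3), which starts coagulation, gave no detected signal. Its only probe lay between 4.15 and 4.45 on all arrays, and its lowest detection p-value was 0.104, so no comparison was made. Some probes of Plat and Tfpi were also undetected beside a detected probe of the same gene. The level of F3 itself therefore stays unknown. Tfpi (chromosome 2, probe ILMN_2819650), which blocks the complex of tissue factor and factor VII, was at 6.85, 6.66, 7.0, 6.63 and 6.66 in the female MI arrays, against 6.91, 5.32, 7.53, 6.91 and 6.29 in the female sham arrays. In males Tfpi was at 5.98, 6.26, 6.29, 6.73 and 6.46 after MI, against 6.60, 6.52, 5.12, 6.88 and 6.70 after sham surgery. MI and sham overlapped fully in both sexes, and the lowest array of each sham group was its position F array. The difference was 0.17 in females (adjusted p = 0.726, 95% interval -0.50 to 0.84) and -0.02 in males (adjusted p = 0.979, 95% interval -0.69 to 0.65). Without position F it was -0.11 (adjusted p = 0.691) and -0.33 (adjusted p = 0.225), so its direction could not be set.

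Thbd encodes thrombomodulin, the endothelial receptor that turns thrombin from a clotting enzyme into an activator of protein C (chromosome 2, probe ILMN_1249767). In females its level was 8.19, 8.36, 8.26, 7.93 and 8.81 in the MI arrays, against 8.57, 7.16, 8.96, 9.01 and 8.81 in the sham arrays. In males it was 8.24, 7.98, 8.21, 8.59 and 8.03 in the MI arrays, against 8.64, 8.59, 8.47, 8.90 and 8.50 in the sham arrays. In males 4 of 5 MI arrays lay below every sham array, and in females the lowest value of all was female sham 2, in position F. Over 20 arrays the difference was -0.19 in females (SE 0.25, adjusted p = 0.603, 95% interval -0.72 to 0.33) and -0.41 in males (SE 0.25, adjusted p = 0.287, 95% interval -0.94 to 0.12). Over the 17 arrays without position F, Thbd was called lower in both sexes, at -0.43 in females (SE 0.15, adjusted p = 0.037) and -0.45 in males (SE 0.14, adjusted p = 0.0378), where 29.9% and 18% of all kept probes were called. Leaving out female sham 2 alone gave a female difference of -0.53 (adjusted p = 0.0134). Within chips it was -0.80 on chip 3 in females (adjusted p = 0.0313) and, in males, -0.42 on chip 1 (adjusted p = 0.0706) and -0.39 on chip 2 (adjusted p = 0.376).

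F13a1 encodes the A subunit of factor XIII, the transglutaminase that links fibrin strands, and is also made by macrophages (chromosome 13, probe ILMN_2914938, start region above). In females its level was 9.53, 9.86, 9.43, 9.32 and 9.76 in the MI arrays, against 8.89, 9.05, 9.32, 9.52 and 9.07 in the sham arrays. In males it was 10.02, 9.68, 9.85, 9.82 and 9.99 in the MI arrays, against 9.27, 9.09, 9.03, 9.46 and 9.27 in the sham arrays. The male groups were apart, whereas in females sham 4 lay above MI arrays 3 and 4 and 3 of 5 MI arrays exceeded all sham arrays. F13a1 was 1.33-fold higher after MI in females (log2 0.41, SE 0.13, adjusted p = 0.021) and 1.57-fold higher in males (log2 0.65, SE 0.13, adjusted p = 0.00188). The male call held without any single array (adjusted p at most 0.0076), but the female call was lost without female sham 1 (adjusted p = 0.0678), female MI 2 (0.0706) or female MI 5 (0.0533). With the chip as a block the female difference was 0.27 (adjusted p = 0.184), within chip 3 it was 0.11 (adjusted p = 0.726), and in males it was 0.72 within chip 1 (adjusted p = 0.0168) and 0.54 within chip 2 (adjusted p = 0.0814). Female MI minus male MI was -0.29 for F13a1 (unadjusted p = 0.034, adjusted p = 0.31).

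No difference between the sexes was called for any of the 7 genes. Among the 7, limma called 0 between female sham and male sham and 0 between female MI and male MI, where 0.107% and 0.145% of all kept probes were called. At an unadjusted p under 0.05 the counts were 0 and 2 of the 7, the 2 being Plaur and F13a1, beside 13.3% and 14.1% of all kept probes. The difference between the sexes in the response to MI was called for 0 of the 7 and for 0% of all kept probes. At an unadjusted p under 0.05 it held 1 of the 7, Plau, and 8.72% of all kept probes. The adjusted p for this difference ranged from 0.557 for Plau to 0.914 for Tfpi.

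Among the sham arrays, Plaur and Plat varied together after each array was set against its group mean. Over 10 sham arrays Pearson's r was 0.924 (permutation p within sex 0.000208, adjusted p = 0.00875) and Spearman's rho was 0.915 (permutation p 0.00104, adjusted p = 0.0438). The 2 arrays farthest from the median of Plaur were those of position F, which lie high for both genes, and without them r was 0.79. Over 10 MI arrays r was 0.384 (permutation p 0.285, adjusted p = 0.63). Plaur and Plat in the sham arrays were the only pair called among the 42 relations computed. For Pearson's r, 3 of the 42 had an unadjusted p under 0.05. The 42 are 21 pairs of genes in each of the MI and sham arms. Without position F another sham pair, Plaur and Serpina3n, had a higher r of 0.886, against 0.215 over 10 sham arrays.

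**Figure D3:**
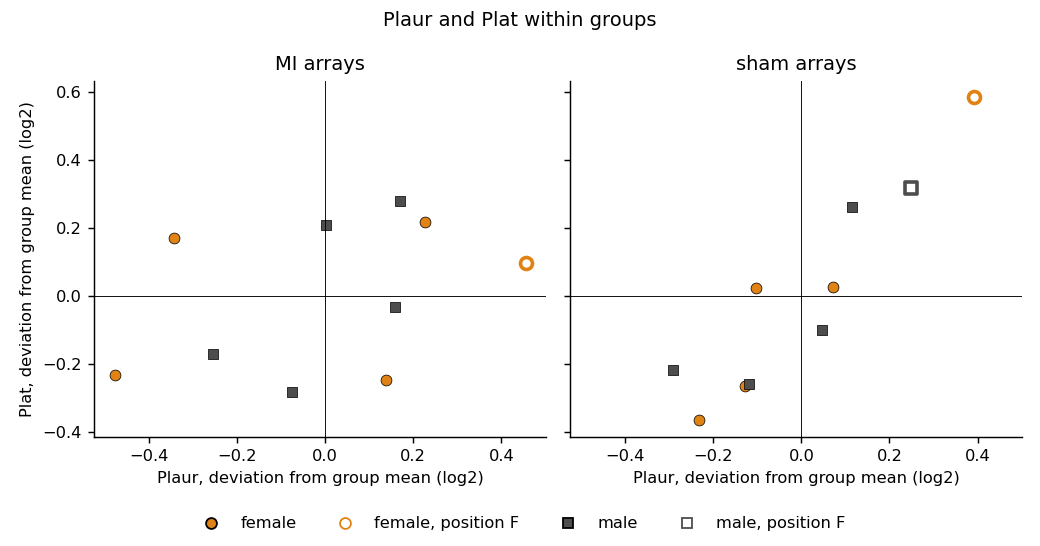
Deviation of Plat (y axis, log2) against that of Plaur (x axis, log2) from their group means in the MI arrays on the left and the sham arrays on the right, females as circles, males as squares and position F arrays open. The sham arrays follow a line (r 0.924, or 0.79 without position F), with both position F arrays at its upper end, while the MI arrays scatter (r 0.384).

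The genes most like each called gene were sought by the root mean square difference of centred levels over 20 arrays. Camk2n2 and Pld4 were nearest to Plau, both at 0.26 log2 units. Gpx1 (0.146) and Cpne2 (0.16) were nearest to Plaur, and Ttf2 (0.153) and Cd93 (0.166) to Plat. Adgre1 (0.344), which marks macrophages, and Lyz1 (0.399) were nearest to Serpina3n. Ankrd10 (0.166) and Slc44a1 (0.174) were nearest to F13a1.

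Markers of macrophages and neutrophils were higher after MI along with these genes. For the counts below, 14.8% of all kept probes were called higher and 15.6% lower in females. In males the shares were 8.79% and 7.73%. Of 7 macrophage and monocyte markers kept, 7 were called higher in female MI and 6 in male MI, and their summed level on a linear scale was 4281 to 8994 in female MI against 2130 to 3736 in female sham, and 4804 to 6082 in male MI against 2224 to 3167 in male sham. Of 5 neutrophil markers, 5 were called higher in females and 4 in males. The neutrophil marker Cxcr2 was detected on 0 sham arrays and the monocyte marker Ccr2 on 1. Both passed the detection filter only through MI arrays. Of 7 endothelial markers, 1 was called higher in females and 0 in males, and the summed level ran from 4724 to 5903 in female MI against 3500 to 5294 in female sham, and from 5064 to 5525 in male MI against 4831 to 5461 in male sham. Of 3 endocardial markers, 2 were called lower in females and 0 in males. Of 3 platelet and megakaryocyte markers 1, Ppbp, was called higher in each sex (1.67 in females and 1.22 in males). Of 7 fibroblast markers, 2 were called higher in females and 3 in males. Of 5 smooth muscle and pericyte markers, 1 was called higher and 4 lower in females, and 0 higher and 1 lower in males. Of 4 mast cell markers, 1 was called higher in each sex and 1 lower in males, and of 2 erythroid markers 1 was called lower in each sex. None of the 3 mesothelial markers and the 1 B cell marker was called. The part of these cells in the results for Plau, Plaur, Plat, Serpina3n, Thbd and F13a1 was not tested. The hepatocyte markers Alb, Apoa1, Serpina1a and Fgb and all 3 T cell markers were detected on 0 arrays. The other 2 hepatocyte markers were detected on 18 arrays (Apoa2) and 7 arrays (Ttr), and Apoa2 was called lower in males (-0.42, adjusted p = 0.0478). Of 7 kept cardiomyocyte markers, which check the tissue label, 0 were called higher in either sex and 1, Tnni3, was called lower in females.

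Of 20 other genes of the plasminogen system, 4 were not analysed here and 11 were kept. In females 5 of the 11 were called higher, 2 lower and 4 not called (median 0.48). In males 3 were called higher, 1 lower and 7 not called (median 0.21). Of all kept probes 30.5% were called in females and 16.5% in males. Thbs1 and Hgf were detected on 2 and 1 female sham arrays and on 0 male sham arrays. Both passed the detection filter only through MI arrays, which adds to the counts called higher. Anxa2, a cell surface annexin that binds Plat and plasminogen, was higher by 1.31 in females (adjusted p = 2.16e-06) and 1.28 in males (adjusted p = 1.25e-05). Thbs1, a matrix glycoprotein, was higher by 1.20 in females (adjusted p = 0.000367), and in males it was detected on 5 MI arrays and 0 sham arrays, at least 1.40-fold higher (adjusted p = 0.00516). Masp1, a serine protease of the lectin pathway of complement, was higher by 0.48 in females (adjusted p = 0.00195) and 0.52 in males (adjusted p = 0.00227). The remaining called genes, named after their values were seen, were Hgf, a growth factor that is structurally related to plasminogen (0.83), and the intracellular inhibitor Serpinb6a (0.49), higher in females, Serpini1, which inhibits Plat in brain (-0.49), lower in females, and Vtn, the adhesion protein vitronectin, lower in both sexes (-0.60 in females and -0.66 in males). Serpini1 lost its female call without female sham 3 (adjusted p = 0.0817) or 4 (0.0531) or female MI 1 (0.0612), 2 (0.0607), 4 (0.097) or 5 (0.0526). It was also lost with no scaling (0.257), no filter (0.0728), only the groups compared (0.0528) and within chip 3 (0.116). Vtn lost its female call with the chip as a block (-0.42, adjusted p = 0.0974) and within chip 3 (-0.33, 0.312). Its male call was lost with no scaling (-0.38, adjusted p = 0.0508) and within chip 2 (-0.42, 0.182). Genes called higher also lost calls within chips, though their differences stayed positive. Within chip 3 the adjusted p in females was 0.0579 for Thbs1, 0.0759 for Masp1, 0.0615 for Hgf and 0.12 for Serpinb6a. Within chip 2 the adjusted p in males was 0.0641 for Thbs1 and 0.0802 for Masp1. Both were called in males within chip 1, and Anxa2 was called within chips 1, 2 and 3. Plasminogen itself (Plg) was detected on 0 arrays.

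**Figure D4:**
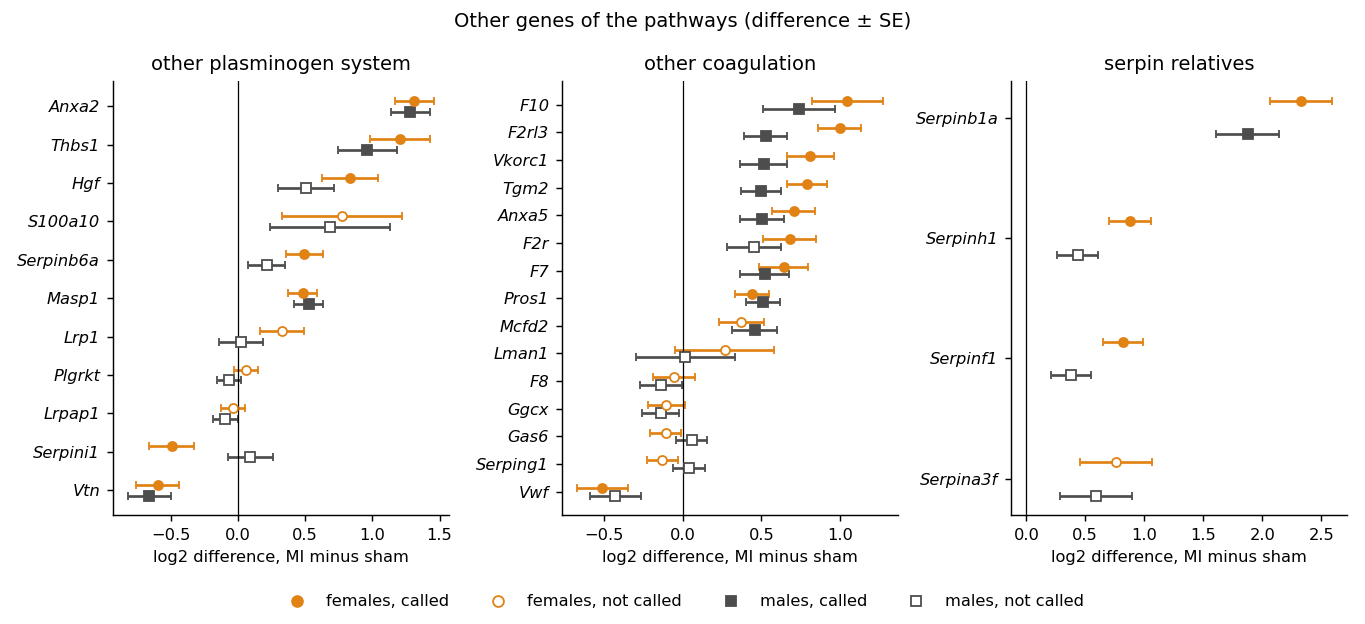
Difference between MI and sham (x axis, log2; bars, SE) for the kept genes of the 3 lists of other genes, females as circles and males as squares, filled where the adjusted p was under 0.05. Anxa2 stands highest among the plasminogen genes, at 1.31 in females and 1.28 in males, and Vtn lowest, at -0.60 and -0.66, while Thbs1 and Hgf in males, F2rl3 in females and F7 and F10 in both sexes have fitted values against sham groups in which they were detected on no array.

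Of 39 other coagulation genes, 15 were kept, and 21 had probes that were detected on no array, the fibrinogen genes Fga, Fgb and Fgg and prothrombin (F2) among them. In females 8 of the 15 were called higher, 1 lower and 6 not called (median 0.44). In males 8 were called higher, 0 lower and 7 not called (median 0.46). Of all kept probes 14.8% were called higher in females and 8.79% in males. F7 and F10, counted as higher in both sexes, were detected on 0 sham arrays, and F2rl3 on 1. These 3 genes passed the detection filter only through MI arrays, which adds to the counts called higher and to the medians. F2rl3, a thrombin receptor, was detected on 5 MI arrays and 0 sham arrays in females, at least 1.64-fold higher (adjusted p = 1.96e-05), and rose by 0.53 in males (adjusted p = 0.0118). Tgm2, a tissue transglutaminase of the same enzyme family as factor XIII, was higher by 0.79 in females (adjusted p = 9.48e-05) and 0.50 in males (adjusted p = 0.0104). Vkorc1, which recycles vitamin K for the clotting factors, was higher by 0.81 in females (adjusted p = 0.000367) and 0.52 in males (adjusted p = 0.0222). Pros1, the cofactor protein S of the anticoagulant pathway that Thbd feeds, was higher by 0.44 in females (adjusted p = 0.00419) and 0.51 in males (adjusted p = 0.00294). The 1 gene called lower was Vwf, an endothelial clotting protein, at -0.51 in females (adjusted p = 0.0193). That call was lost without female MI 1 (adjusted p = 0.0646) or 2 (0.0574) and with the chip as a block (-0.41, 0.121). It was also lost with no scaling (-0.35, adjusted p = 0.145) and within chip 3 (-0.47, 0.204). With 75th percentile scaling the male calls were lost for Tgm2 (0.26, adjusted p = 0.247), Vkorc1 (0.36, 0.0859) and F2rl3 (0.40, 0.0585). Vkorc1 also lost its male call without male MI 3 (0.0546) or 5 (0.0531) or male sham 2 (0.0554) or 3 (0.0553). Pros1, Tgm2, Vkorc1 and F2rl3 also lost calls within chips, though their differences stayed positive. In males, none was called within chip 2: Pros1 (0.21), F2rl3 (0.18), Tgm2 (0.62, adjusted p = 0.0903) and Vkorc1 (0.55, 0.0643). Within chip 1 Pros1 and F2rl3 were called in males, but Tgm2 (adjusted p = 0.0629) and Vkorc1 (0.0715) were not. Within chip 3 F2rl3 and Tgm2 were called in females, but Pros1 (0.34) and Vkorc1 (0.56) were not.

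Among 17 serpin relatives of Serpina3n, 4 were kept, of which 3 were called higher in females and 1 in males, with 0 lower. Of all kept probes 14.8% were called higher in females and 8.79% in males. Serpinb1a, an inhibitor of neutrophil proteases, had the largest difference of the 4, at 2.33 in females (5.02-fold, adjusted p = 3.05e-06) and 1.88 in males (3.67-fold, adjusted p = 8.81e-05). Serpinh1, a collagen chaperone, was higher by 0.88 in females (adjusted p = 0.00082), as was Serpinf1, known for restraining blood vessel growth, by 0.82 (adjusted p = 0.0011). Within chip 3 Serpinf1 was not called in females (0.86, adjusted p = 0.0843), whereas Serpinh1 and Serpinb1a were. The fourth, Serpina3f, differed by 0.76 in females (adjusted p = 0.0634) and 0.59 in males (adjusted p = 0.197). Without position F it was called in females (1.06, adjusted p = 0.00843). Serpina3f was detected on 5 MI arrays and 1 sham array of each sex. It passed the detection filter only through MI arrays, which favours a positive difference. For the 3 lists together 0 genes were called for a difference between the sexes in the response, beside 0% of all kept probes.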

How the data were processed

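RNA of 20 left ventricles was measured on 4 Illumina BeadChips, 1 array per mouse. The authors deposited the intensity of each probe on each array, not normalised between arrays as far as the values show, with a detection p-value in the next column, per the file headers. They also deposited log2 values, whose columns have medians of 5.14 to 5.15 and r of 0.997 to 1 with the intensities of the same label. Probes were named from the platform annotation, with 34885 of 45281 having 1 symbol, 18 several and 10378 unlisted here.

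From the intensities, neqc in limma 3.58.1 (R 4.3.3) removed background, for which it infers negative controls from detection p-values, and gave quantile normalised log2 values with an offset of 16. The 18683 kept probes entered a linear model with 4 group means, 16 residual degrees of freedom and no covariate, and every contrast, two-sided, was adjusted by Benjamini-Hochberg. On simulated data for males MI against sham (18683 probes) 49.3% of 1.5-fold, 94% of 2-fold and 97% of 4-fold changes were recovered. There 67, 67 and 66 probes were changed, with independent noise and no effect of chip or position. In the real male contrast 16.5% of kept probes were called, so these shares need not hold for it.

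Where a probe was detected on no sham array, "at least" folds set the MI mean against, per sham array, the higher of the lowest signal of a detected probe and its own. The genes and lists were chosen with earlier results of these data known. Of other lists, the 3 genes with the smallest p per sex among those called were named, each by its kept probe with the highest mean, and the 2 nearest genes of each called gene. A loose NF-kappaB motif, which many start regions match, was also searched and is not reported. Correlations used exact permutation within sex (14400 orders). The replicate numbers follow the order of the samples within each group, and arrays were treated as unpaired. Deviations of same-numbered MI and sham arrays correlated between -0.34 and 0.33. As the numbers are an order only, this cannot decide whether any arrays were paired. Alternatives changed background, scaling, filter, probes per gene, chip, position, samples and error model.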

Additional observations from a re-analysis of the deposited data

Results flagged for a closer look

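In 28 groups of 5 arrays, 7 genes in each of 4 groups, 2 single arrays lay far from the other 4 of their group, where chance gives about 1 in 20 groups, or 1.4. The level of Tfpi in male sham 3 was 5.12, and the nearest of the others was 6.52. The level of Thbd in female sham 2 was 7.16, and the nearest of the others was 8.57. Both arrays lie in position F of their chips.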

How the results depend on the processing

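Over 18 alternative settings, 343 of 374 single-gene values kept their direction and their side of the threshold, 12 lost a call, 9 gained one and 10 changed sign, 0 of these for a called gene. Leaving out each array in turn, 451 of 480 values were kept and 10 changed sign. Signs changed for uncalled values only: with no scaling Tfpi in males was 0.29 and Thbd in females 0.00447. With the chip as a block Tfpi was -0.21 in females and its difference between responses -0.19, and that of Thbd was -0.17. Tfpi was 0.10 in males within chip 1 and -0.43 in females within chip 3. Without position F Tfpi was -0.11 in females and the Serpina3n difference between responses 0.17, and with array weights that of Thbd was -0.00301. Leaving out 1 array, Tfpi ranged from -0.33 to 0.11 in males and from -0.15 to 0.40 in females, and the differences between responses from -0.13 to 0.50 for Tfpi, -0.52 to 0.0136 for Serpina3n and -0.12 to 0.34 for Thbd. Member calls in males numbered 2 with no filter on dim probes, where more probes enter the adjustment, and 1 within chip 2, where 4 arrays remain. Leaving out 1 array gave 3 to 6 in females and 2 to 4 in males, 2 without male MI 3, male MI 5 or male sham 2. All probes called were 1304 in females within chip 3, 806 in males within chip 2 and 5307 in males with array weights, and without 1 array 4658 to 6275 in females and 2134 to 3555 in males. Female MI against male MI had 1019 calls with no scaling, 7 with the chip as a block, 2271 with array weights (1 of them a member, Plau at 0.63, adjusted p = 0.0443) and 16 to 775 without 1 array, 775 without female MI 3 and 16 to 17 without female MI 1, 2 or 4. Female sham against male sham had 190 with no scaling, 11 with the chip as a block, 1 within chip 2, 12 with only these groups, 43 with array weights and 13 to 74 without 1 array, 13 without male sham 1, 74 without male sham 4 and 36 without female sham 2. The difference between responses had 1 call with array weights and 0 to 0 without 1 array. The male Plaur call was also lost with no background correction (adjusted p = 0.0555), an offset of 50 (0.0608) and no filter (0.086), and the male Serpina3n call with no filter (0.0762). With only the groups compared, Thbd in males (0.0383) and Serpina3n in females (0.0381) were called and F13a1 in females was not (0.0674). Serpina3n in females was also called with array weights (0.00968), and Plau in males with no scaling (0.80, adjusted p = 0.0275), where the median of all probes moved to 0.23. With the replicate block, which joins arrays by these order numbers and so cannot test a true pairing, no member call changed (Plaur in males 0.0418, Serpina3n in females 0.0503). The cause of these changes was not tested. Of the genes named from the other lists, 478 of 528 values were kept over these settings, 30 lost a call, 18 gained one and 2 changed sign, both of Serpini1 in males (-0.00308 with 75th percentile scaling and -0.050 without position F, or without male sham 3), and Serpini1 lost its female call with the replicate block (0.054). Each result rests on 1 probe per gene. From the other lists Anxa2, Masp1, Tgm2, Serpinh1 and Serpinf1 had 2 kept probes and Vkorc1 had 3. Values of their further kept probes are not given. The only probe of F3 was not detected, which does not set the level of that gene.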
